A study of Mus musculus with 23 samples.

Results

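The genes described here are 36 genes of fibroblast growth factor (FGF) signalling and of the RAS-ERK kinase cascade that it drives. They were taken as a list by symbol from the deposited count table, in 4 roles, and all 36 were found among its 23725 lines. There were 8 ligand genes, of which Fgfbp1 encodes a carrier, and 4 receptor genes. The adaptors and the RAS-ERK cascade had 12 genes, and the feedback inhibitors and ETS-factor targets had 12.

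FGFs are secreted proteins that bind tyrosine kinase receptors together with heparan sulfate. The bound receptor phosphorylates the docking protein FRS2, which brings in GRB2 and SOS1 to load RAS with GTP, and RAS starts the chain of RAF, MEK and ERK kinases. ERK activity in turn raises the transcription of its own brakes (Sprouty and Spred proteins and the DUSP phosphatases) and of the ETS factors Etv1, Etv4 and Etv5, so these genes are commonly used as a read-out of the pathway. Just after implantation the epiblast is known as a source of FGF4, and the trophoblast of the extra-embryonic ectoderm, which carries FGFR2, depends on it to keep its stem cells.

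RNA was measured in 2 compartments of mouse embryos at stage E6.25, namely the epiblast (E), from which the embryo itself arises, and the extra-embryonic part (ExE). By genotype they were wild type (wt), Tet1gt/wt with 1 copy of a Tet1 gene trap (called heterozygous here) or Tet1gt/gt with 2 copies (called homozygous). TET1 oxidises 5-methylcytosine in DNA, and the labels name no other allele and no treatment. Each library is a pool of lysates from at least 6 embryos of 2 to 3 litters, grouped after genotyping. There were 4 pools per tissue and genotype except for homozygous ExE, with 3, and the pool numbers below are those of the labels. The labels do not place the trap within Tet1.

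Total counts ranged from 4912215 to 9494814 per library. Levels are given as CPM, counts scaled to a common library size. A gene at 0 may have up to 3 counts, equal to 0.312 to 0.684 CPM by library, a limit for counting error only because amplified reads are not independent molecules. Libraries of the same group differed by more than counting noise in all 33 pairs (chi-square divided by its degrees of freedom, 12.3 to 118). Long transcripts read lower in 3 libraries (pool 4 of heterozygous E and pool 3 of both homozygous tissues), with a slope of -0.293 to -0.249 on log2 length against -0.0430 to 0.101 in the other 20. Tet1 was at 127 to 197 CPM in wt E and 55.3 to 113 CPM in homozygous E, and at 77.1 to 110 CPM in wt ExE and 21.5 to 37.8 CPM in homozygous ExE. Of 8 trophoblast markers 8 were higher in wt ExE than in wt E, and of 7 epiblast markers 5 were lower, at the edgeR threshold. The epiblast markers Utf1 and Pou3f1 did not mark E, since their wt ExE pools stood at 78.7% to 130% of the wt E mean.

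The 250 bases before the start site of 4 members are shown here, because TET1 acts on the cytosines of CpG pairs and these genes differ between the tissues. Fgf4 and Fgf5 are ligands that were higher in E, Fgfr2 a receptor that was higher in ExE, and Etv5 a target that was higher in E. Sequences are from RefSeq on GRCm38.p6, written 5′ to 3′ on the strand of the gene, with CpG pairs in capitals.
Fgf4, chr7:144861136-144861385, plus strand: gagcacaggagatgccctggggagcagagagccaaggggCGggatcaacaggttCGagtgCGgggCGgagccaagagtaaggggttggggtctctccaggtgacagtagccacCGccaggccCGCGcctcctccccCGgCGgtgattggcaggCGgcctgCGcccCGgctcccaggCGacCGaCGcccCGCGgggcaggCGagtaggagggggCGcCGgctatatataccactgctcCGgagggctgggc
Fgf5, chr5:98253934-98254183, plus strand: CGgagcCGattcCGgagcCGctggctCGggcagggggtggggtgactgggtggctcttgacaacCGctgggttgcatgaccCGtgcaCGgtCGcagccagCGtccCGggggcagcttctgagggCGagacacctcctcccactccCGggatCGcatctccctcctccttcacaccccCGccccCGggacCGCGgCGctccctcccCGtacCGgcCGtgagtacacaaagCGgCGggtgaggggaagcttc
Fgfr2, chr7:130266809-130267058, minus strand: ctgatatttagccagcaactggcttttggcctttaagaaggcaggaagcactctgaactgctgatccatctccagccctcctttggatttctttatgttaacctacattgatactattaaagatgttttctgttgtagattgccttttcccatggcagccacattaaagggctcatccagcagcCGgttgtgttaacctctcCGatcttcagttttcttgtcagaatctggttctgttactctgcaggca
Etv5, chr16:22439571-22439820, minus strand: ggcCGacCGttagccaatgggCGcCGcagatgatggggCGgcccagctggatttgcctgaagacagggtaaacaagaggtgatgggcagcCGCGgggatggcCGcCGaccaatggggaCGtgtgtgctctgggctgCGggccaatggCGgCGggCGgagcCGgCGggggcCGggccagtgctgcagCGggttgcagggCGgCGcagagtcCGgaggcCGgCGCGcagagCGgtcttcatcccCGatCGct
These windows held 21 CpG pairs for Fgf4, 24 for Fgf5, 2 for Fgfr2 and 27 for Etv5, and Etv5 had a second listed start, whose window held 18.

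Promoters of 28 of the 36 members were matched, 33 windows in all. The median ratio of observed to expected CpG was 0.716 over the members' windows, 0.544 over the 20226 windows of all genes in the count table and 0.374 over all 32851 windows of the RefSeq table. By role the median was 0.407 for ligands (5 windows), 0.651 for receptors (4), 0.754 for the cascade (13) and 0.825 for the feedback group (11). The ETS motif CCGGAAGT, searched on both strands, was found in 1 of the 33 members' windows (3.03%), that of Frs2, and in 2.88% of all windows. These values describe the letters only, since neither methylation nor binding was measured.

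Between the tissues of wt embryos, 15 of the 36 genes passed the threshold, an edgeR adjusted p under 0.05, which is what "rose" and "fell" stand for below. In ExE relative to E, 5 rose, against 9.28% of all genes tested, and 10 fell, against 7.98% of all genes tested. The ligands Fgf4, Fgf5, Fgf8 and Fgf15 were lower in ExE, the receptor Fgfr2 and the carrier Fgfbp1 were higher, and in the cascade Grb2 and Map2k1 were higher while Mapk3 and Nras were lower. Etv1, Etv5, Dusp4 and Spry2 of the feedback group were lower in ExE and Dusp5 was higher. In heterozygous embryos 24 members were called (8 higher, where the share of all genes was 12%, and 16 lower, where it was 14.9%). In homozygous embryos 14 were called (4 higher against 9.12%, and 10 lower against 7.66%). Fgfbp1, Fgfr2, Grb2 and Map2k1 were called higher in ExE in each genotype, and Fgf4, Fgf5, Fgf8, Fgf15, Mapk3, Etv1 and Etv5 were called lower. The share of all genes called in all 3 genotypes was not computed. Not all of these calls held in the alternative settings given below. That of Map2k1 was lost in 10 of 15 settings in wt and in 8 of 13 in homozygous embryos. Over the members the median log2 fold changes were -0.17 (wt), -0.30 (heterozygous) and -0.41 (homozygous), beside -0.013, -0.050 and 0.0040 over all genes tested. All ExE pools lay above all E pools for 14.3% (wt), 14.3% (heterozygous) and 11.2% (homozygous) of all genes tested. They all lay below for 13.8%, 15.4% and 12.1%. Without the 3 libraries of steep length slope, the calls numbered 19, 25 and 14, where the shares of all genes were 26.3%, 35.6% and 20% against 17.3%, 27% and 16.8% with them.

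**Figure D1:**
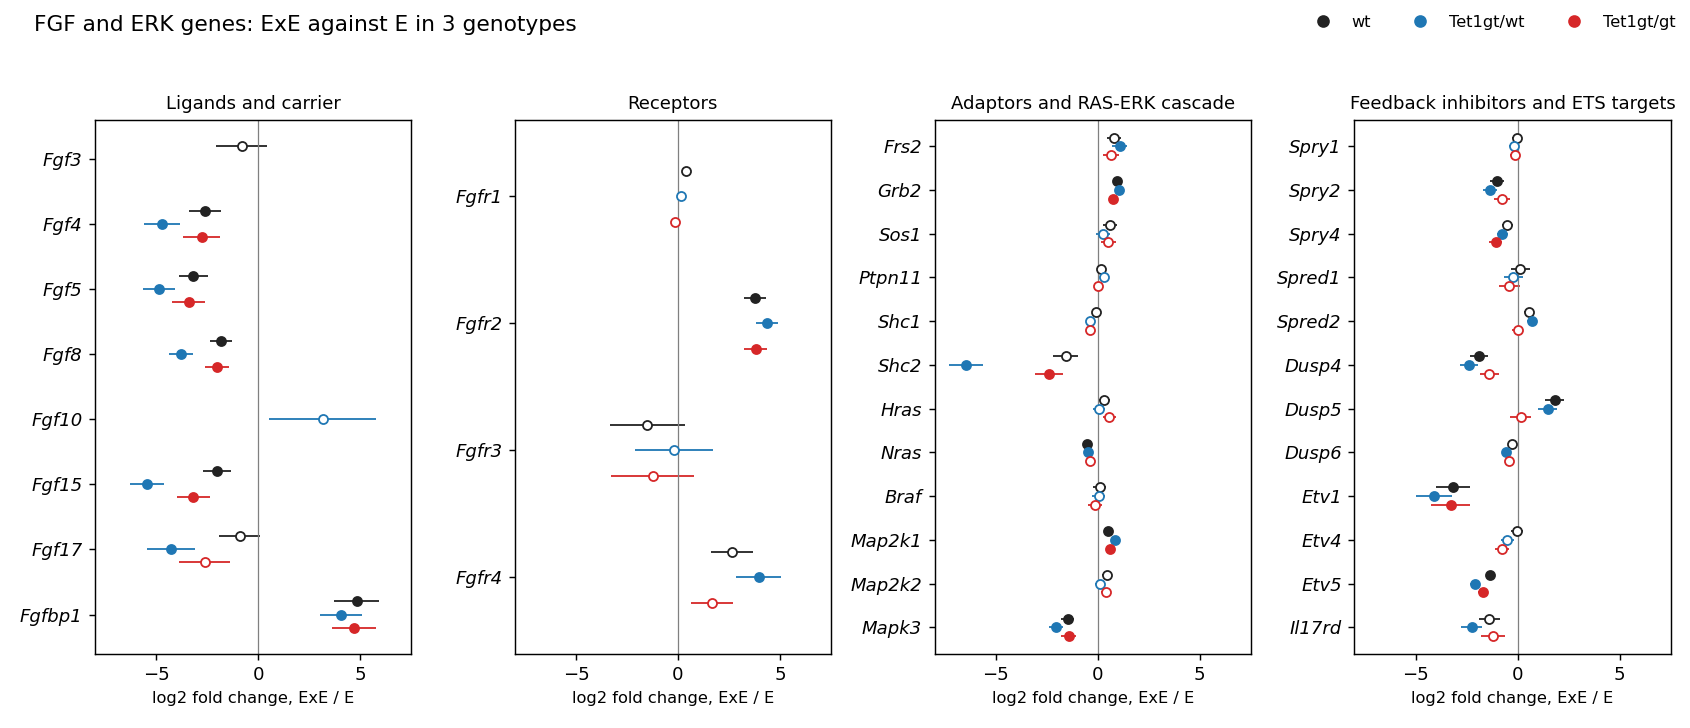
Log2 fold change of each member between ExE and E (x axis, above 0 is higher in ExE) in wt, heterozygous and homozygous embryos, with whiskers for 1 SE and filled points for an edgeR adjusted p under 0.05. Fgfr2 and Fgfbp1 lie at 3.78 or more in all 3 genotypes and Fgf4, Fgf5, Fgf8 and Fgf15 at -1.82 or less. Fgf3 and Fgf10 have no point where all libraries of a group were at 0.

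Fgf4, the ligand that acts on trophoblast (chromosome 7, 144861386 to 144865245), was at 39.4, 37.4, 42.2 and 44.8 CPM in E wt pools 1, 2, 4 and 5 and at 13.2, 0.221, 8.19 and 5.54 CPM in ExE wt pools 1, 2, 4 and 5. In heterozygous embryos it was at 81.6, 46.4, 45.8 and 41.5 CPM in E pools 2, 3, 4 and 5 and at 3.29, 4.87, 0 and 0.213 CPM in ExE pools 1, 2, 3 and 5. In homozygous embryos it was at 42.1, 92.1, 33.5 and 49.0 CPM in E pools 1 to 4 and at 3.78, 16.6 and 4.03 CPM in ExE pools 1, 3 and 4. Every E pool was thus above every ExE pool, and the ExE values spread widely around their means. The log2 fold change was -2.59 ± 0.79 (SE, edgeR adjusted p = 0.0258) in wt, -4.72 ± 0.89 (0.000415) in heterozygous and -2.77 ± 0.89 (0.0355) in homozygous embryos.

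Fgf5, a ligand that marks the epiblast after implantation (chromosome 5, 98254184 to 98277033), was the most abundant ligand per length in wt E, at 104 CPM per kb of exon, ahead of Fgf8 at 50.0, Fgf15 at 19.5 and Fgf4 at 12.8 CPM per kb. Its level was 256, 264, 232 and 287 CPM in the E wt pools and 67.3, 2.33, 29.7 and 16.0 CPM in the ExE wt pools. Heterozygous pools had 284, 262, 136 and 342 CPM in E and 12.2, 7.89, 1.23 and 14.1 CPM in ExE. Homozygous pools had 306, 393, 171 and 340 CPM in E and 5.81, 19.8 and 59.7 CPM in ExE. No ExE pool reached any E pool, and the lowest E values were those of heterozygous pool 4 and homozygous pool 3, 2 of the libraries with steep length slopes. Fgf5 differed by -3.17 ± 0.72 (log2, edgeR adjusted p = 0.00413) in wt, -4.85 ± 0.78 (9.84e-05) in heterozygous and -3.40 ± 0.82 (0.00708) in homozygous embryos.

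Fgf8, which mesoderm needs to leave the primitive streak (chromosome 19, 45736491 to 45742941), was at 76.9, 87.8, 69.8 and 35.7 CPM in the E wt pools and at 37.9, 4.43, 21.3 and 12.7 CPM in the ExE wt pools. Heterozygous pools had 62.4, 50.1, 111 and 96.3 CPM in E and 6.79, 5.16, 7.81 and 3.30 CPM in ExE. Homozygous pools had 45.0, 35.1, 89.3 and 56.3 CPM in E and 2.84, 22.1 and 17.2 CPM in ExE. The wt groups overlapped, since ExE pool 1 stood above E pool 5, and the groups of the other genotypes did not. The log2 fold change was -1.82 ± 0.54 (edgeR adjusted p = 0.0215) in wt, -3.79 ± 0.59 (6.66e-05) in heterozygous and -2.02 ± 0.61 (0.0254) in homozygous embryos.

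Fgf15, the mouse counterpart of human FGF19 (chromosome 7, 144896532 to 144900953), was at 59.2, 61.7, 64.7 and 52.5 CPM in the E wt pools and at 30.8, 1.66, 17.5 and 8.38 CPM in the ExE wt pools. Heterozygous pools had 58.8, 56.8, 44.5 and 68.2 CPM in E and 2.41, 0.143, 0 and 2.45 CPM in ExE. Homozygous pools had 45.0, 54.6, 74.6 and 67.9 CPM in E and 1.22, 11.6 and 7.55 CPM in ExE. The E pools of the 3 genotypes lay close together and above every ExE pool. Fgf15 differed by -2.03 ± 0.67 (log2, edgeR adjusted p = 0.0405) in wt, -5.45 ± 0.82 (4.78e-05) in heterozygous and -3.18 ± 0.81 (0.00985) in homozygous embryos. It lies 31.3 kb from Fgf4 and in a cluster with Fgf3, the 3 genes spanning 62.3 kb.

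The remaining ligands were low. Fgf17, a close relative of Fgf8, was at 9.33, 6.70, 8.81 and 0.444 CPM in the E wt pools and 2.52, 0, 9.14 and 1.76 CPM in the ExE wt pools, which overlapped (-0.91 ± 1.01, edgeR adjusted p = 0.603). In heterozygous embryos it was at 9.77, 9.79, 12.3 and 9.98 CPM in E and 0.548, 0, 0.112 and 1.38 CPM in ExE, a fall (-4.27 ± 1.18, adjusted p = 0.00895 by edgeR). Homozygous pools had 10.1, 2.08, 6.74 and 3.90 CPM in E and 0, 1.14 and 1.64 CPM in ExE, short of the threshold (-2.61 ± 1.25, adjusted p = 0.156 by edgeR).

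Fgf3, a ligand of the same chromosome 7 cluster (144838612 to 144843348), was near the floor throughout. It was at 1.05, 0.220, 1.08 and 0 CPM in the E wt pools and 0.720, 0, 0.475 and 0.135 CPM in the ExE wt pools (-0.80 ± 1.25, edgeR adjusted p = 0.725). E pools had 2.55, 0.922, 0.352 and 0.788 CPM in heterozygous and 0.561, 2.40, 1.55 and 0.509 CPM in homozygous embryos, and all 7 ExE pools of these genotypes were at 0. The highest level that 3 counts stand for in 1 of those libraries was 0.430 CPM in heterozygous and 0.684 CPM in homozygous ExE. The E means of Fgf3 were 2.68-fold and 1.84-fold those levels. Heterozygous E pool 4 and homozygous E pools 1 and 4 lay under them, so the ratios are not lower bounds for single pools. Fgf3 fell in heterozygous (edgeR adjusted p = 0.00828) and homozygous ExE (adjusted p = 0.0333). Blocked by pool number Fgf3 was not tested, because too few pools had counts. In homozygous embryos its call was lost, or Fgf3 was not tested, in 8 of 13 alternative settings (highest edgeR adjusted p = 0.103). Fgf10, which acts from mesenchyme on epithelia, was found in few pools. It was at 4.996 and 0.330 CPM in E wt pools 1 and 2, 0.176 CPM in E heterozygous pool 4, 4.15 and 0.625 CPM in E homozygous pools 1 and 2 and 1.79 CPM in ExE heterozygous pool 3, and at 0 in the other 17 libraries. No tissue comparison of Fgf10 passed the threshold (edgeR adjusted p = 0.0951, 0.333 and 0.171 in wt, heterozygous and homozygous embryos).

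Fgfbp1, which releases FGFs bound to the extracellular matrix (chromosome 5, 43978858 to 43981828), was at 2.89, 0, 2.71 and 0.296 CPM in the E wt pools and 39.0, 51.7, 41.7 and 35.1 CPM in the ExE wt pools. Heterozygous pools had 0.106, 0.461, 13.7 and 1.18 CPM in E and 67.4, 67.8, 80.2 and 31.0 CPM in ExE. Homozygous pools had 4.37, 1.67, 8.12 and 0 CPM in E and 163, 85.0 and 27.7 CPM in ExE. All ExE pools were above all E pools, the reverse of the order of the FGFs. The log2 fold change was 4.83 ± 1.10 (edgeR adjusted p = 0.00419) in wt, 4.08 ± 1.03 (0.00515) in heterozygous and 4.71 ± 1.08 (0.00513) in homozygous embryos.

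**Figure D2:**
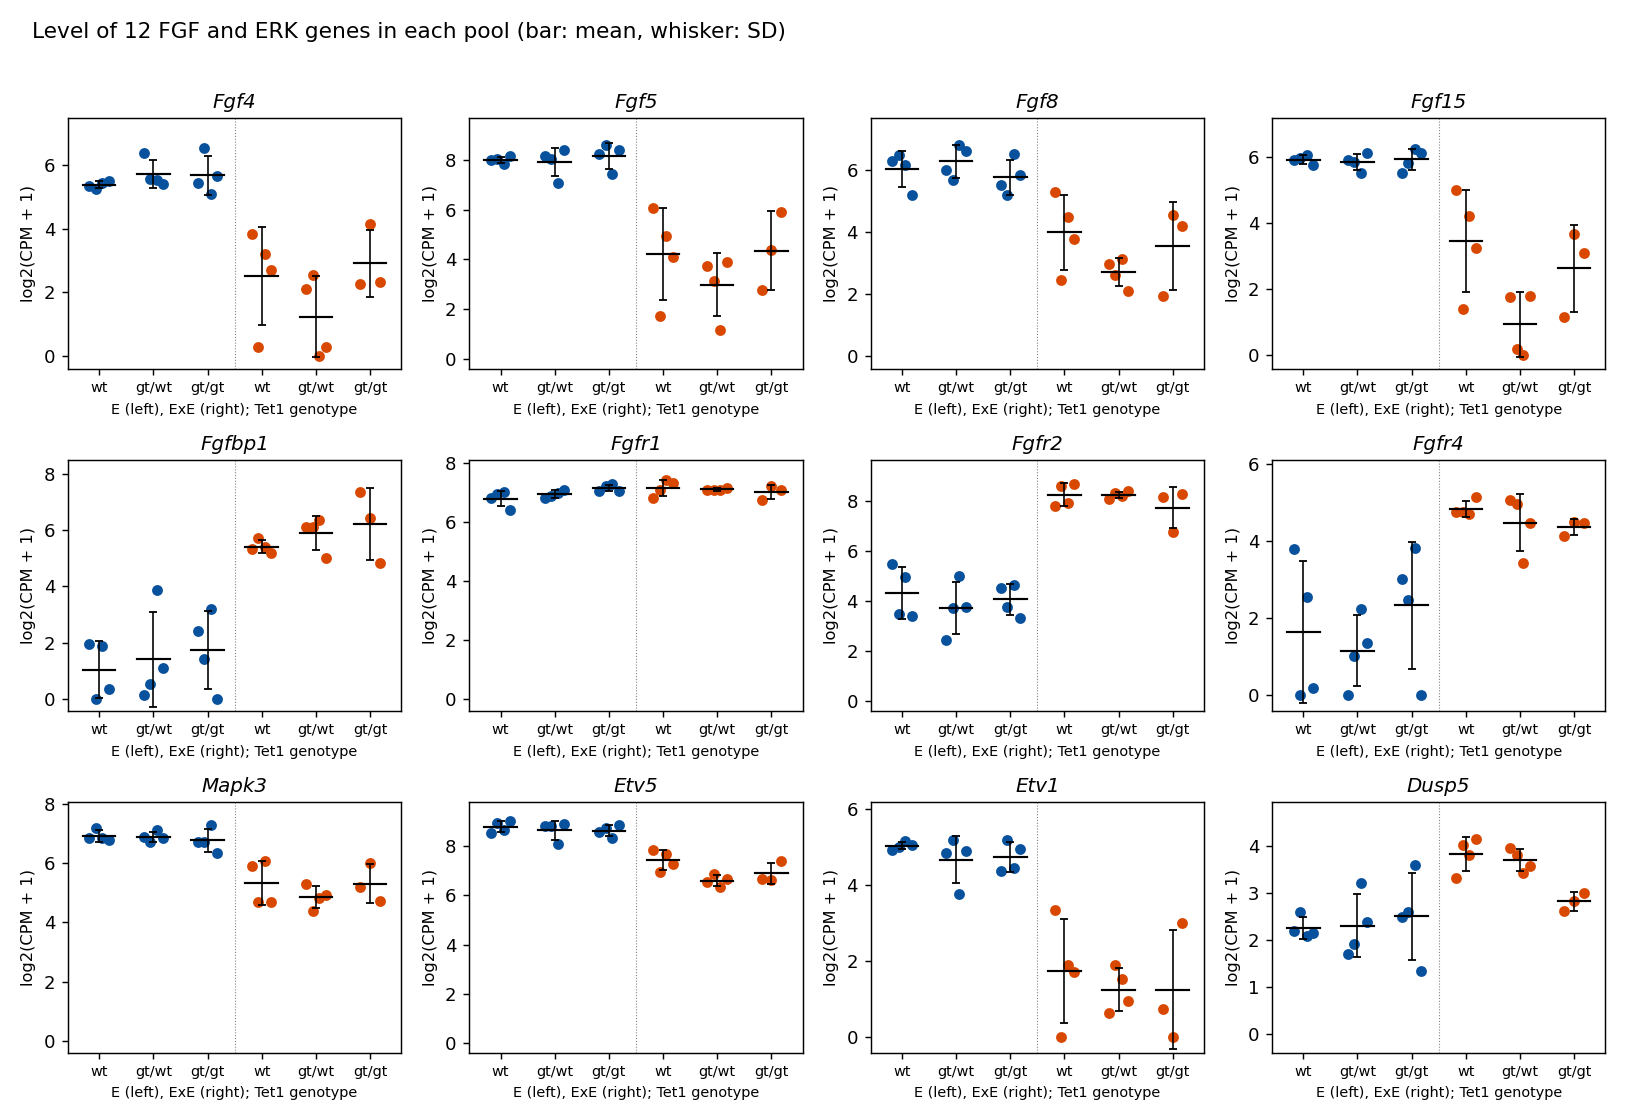
Level of 12 members in every pool as log2(CPM + 1) on the y axis, by Tet1 genotype, with E on the left and ExE on the right of each panel, the mean as a bar and the SD as a whisker. E pools of Fgf4, Fgf5 and Fgf15 lie above the ExE pools, which scatter more widely on this log scale. Fgfr2 and Fgfbp1 show the reverse order, and the tissues overlap for Fgfr1.

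In wt ExE the FGFs were high and low in the same pools as some markers of the epiblast. Relative to the wt E mean, Pou5f1, the gene of OCT4, stood at 41.0%, 2.66%, 27.0% and 11.6% in ExE wt pools 1, 2, 4 and 5, and Otx2 at 43.3%, 1.97%, 15.1% and 7.96%. In the same pools Fgf4 stood at 32.2%, 0.541%, 20.01% and 13.5%, Fgf5 at 25.9%, 0.895%, 11.4% and 6.14%, Fgf8 at 56.1%, 6.56%, 31.5% and 18.8% and Fgf15 at 51.8%, 2.79%, 29.3% and 14.1%. These 6 genes gave the wt pools the same order, with pool 1 highest and pool 2 lowest. Of the other 5 epiblast markers, Dnmt3b had that order too, Nanog (35.8%, 0.919%, 37.2% and 18.3%) and Tdgf1 (20.7%, 6.23%, 31.2% and 18.03%) were highest in pool 4 and lowest in pool 2, and Utf1 and Pou3f1 were highest in pool 4 and lowest in pool 5. In ExE heterozygous pools 1, 2, 3 and 5, Pou5f1 stood at 4.54%, 3.99%, 1.44% and 6.90% of its heterozygous E mean and Fgf5 at 4.75%, 3.08%, 0.480% and 5.50%, in the same order, as was Fgf15 at 4.23%, 0.251%, 0% and 4.29%. Fgf4, at 6.11%, 9.06%, 0% and 0.396%, and Fgf8, at 8.50%, 6.46%, 9.77% and 4.13%, did not follow it there. Of the other epiblast markers, Otx2 and Pou3f1 had the order of Pou5f1 in these pools, and Nanog, Tdgf1, Utf1 and Dnmt3b did not. In ExE homozygous pools 1, 3 and 4, Pou5f1 stood at 3.94%, 42.5% and 17.9% and Fgf5 at 1.92%, 6.56% and 19.7%. Fgf4 (6.98%, 30.7% and 7.44%), Fgf8 (5.03%, 39.2% and 30.6%) and Fgf15 (2.01%, 19.2% and 12.48%) had the order of Pou5f1, and Fgf5 did not. The other epiblast markers were split, as Otx2, Utf1 and Pou3f1 had the order of Pou5f1. Nanog (14.0%, 18.7% and 55.3%), Tdgf1 (9.84%, 17.6% and 46.9%) and Dnmt3b (25.3%, 30.1% and 34.0%) had the order of Fgf5. The summed level of the 7 epiblast markers was 2994 to 4942 CPM in wt, 2372 to 3059 CPM in heterozygous and 2172 to 4185 CPM in homozygous ExE, against 7649 to 10587 CPM in E, and none of the 7 was at 0 in any library. The part of these markers in the ligand levels of ExE was not tested. In pooled tissue, fewer cells of a type and less RNA per cell cannot be told apart.

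**Figure D3:**
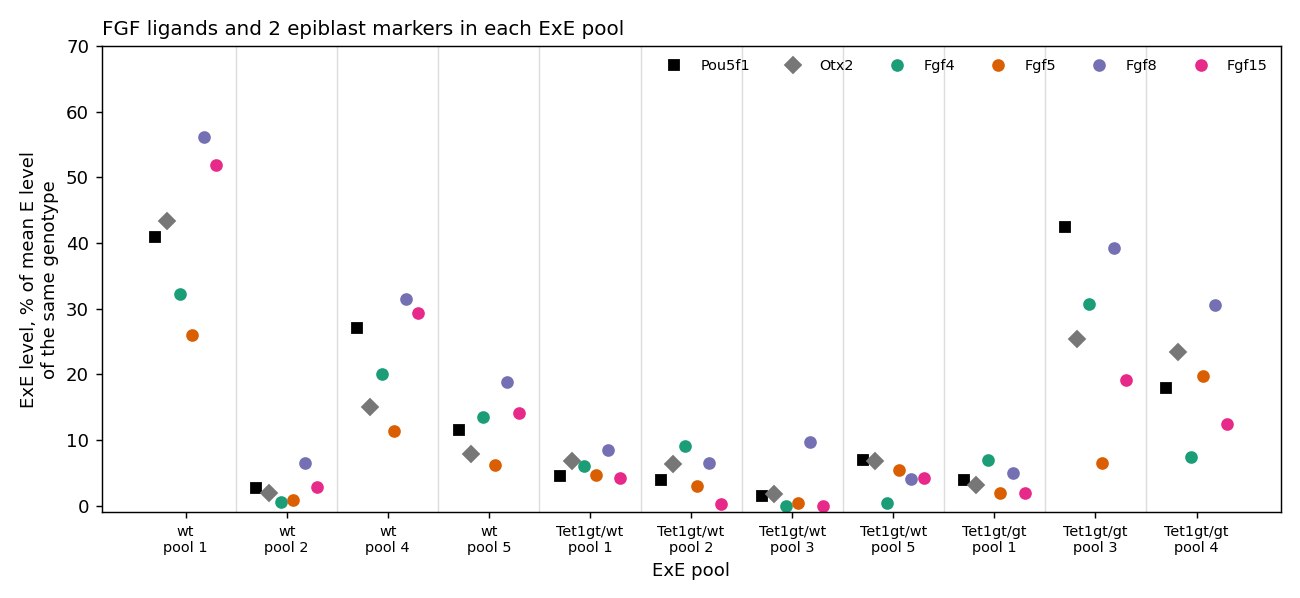
Level in each ExE pool as a percentage of the mean E level of the same genotype (y axis), for the epiblast markers Pou5f1 and Otx2 and for 4 FGF ligands. In the wt pools all 6 genes are highest in pool 1 and lowest in pool 2, and the heterozygous pools lie at 9.77% or less.

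Leaving out single pools changed calls of the ligands in wt and in homozygous embryos. Fgf15 lost its call in 7 of 15 alternative settings, without any one of E wt pools 1, 2, 4 and 5 or ExE wt pools 2, 4 and 5 (highest edgeR adjusted p = 0.113). Fgf4 lost it in 4, without E pool 5 or ExE pools 2, 4 or 5 (highest 0.0696), and Fgf8 in 3, without E pool 2 or ExE pools 2 or 5 (highest 0.0684), while Fgf5 and Fgfbp1 kept it in all 15. In homozygous embryos Fgf4 lost its call in 4 of 13 settings (highest edgeR adjusted p = 0.140), Fgf8 in 3 (0.109) and Fgf15 in 1 (0.0513). Fgf5 and Fgfbp1 kept theirs in all 13. The heterozygous calls of Fgf4, Fgf5, Fgf8, Fgf15, Fgf17 and Fgfbp1 were kept in all 14 settings.

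Fgfr2, the receptor of trophoblast stem cells (chromosome 7, 130162451 to 130266808), was at 43.3, 10.0, 30.2 and 9.47 CPM in the E wt pools and 224, 391, 245 and 417 CPM in the ExE wt pools. Heterozygous pools had 4.46, 12.1, 30.8 and 12.6 CPM in E and 271, 320, 293 and 336 CPM in ExE. Homozygous pools had 21.9, 12.7, 24.0 and 8.995 CPM in E and 287, 109 and 313 CPM in ExE. The lowest ExE pool, homozygous pool 3, was one of the libraries with steep length slopes and was still above every E pool. Fgfr2 rose by 3.78 ± 0.53 (log2, edgeR adjusted p = 8.3e-05) in wt, 4.36 ± 0.55 (8.93e-06) in heterozygous and 3.81 ± 0.55 (0.000149) in homozygous embryos, and all alternative settings kept these calls.

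Fgfr1, the broadly expressed receptor (chromosome 8, 25518759 to 25575718), was present in both tissues. It was at 111, 122, 128 and 84.5 CPM in the E wt pools and 111, 134, 170 and 161 CPM in the ExE wt pools. E pools had 112, 116, 126 and 136 CPM in heterozygous and 132, 147, 154 and 132 CPM in homozygous embryos. ExE pools had 136, 134, 134 and 143 CPM in heterozygous and 106, 149 and 134 CPM in homozygous embryos. The tissues overlapped in each genotype, with log2 fold changes of 0.37 ± 0.16 in wt (edgeR adjusted p = 0.116), 0.16 ± 0.16 in heterozygous (0.514) and -0.13 ± 0.17 in homozygous embryos (0.671). Per kb of exon, wt E had 11.3 ± 1.96 CPM of Fgfr1 and 2.25 ± 1.60 CPM of Fgfr2, and wt ExE had 14.6 ± 2.71 and 30.9 ± 9.55 CPM (SD, n = 4). Within a pool the ratio of Fgfr2 to Fgfr1 per kb was 0.0382 to 0.374 in the 12 E pools and 1.38 to 2.79 in 10 of the ExE pools, with 0.703 in ExE homozygous pool 3.

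**Figure D4:**
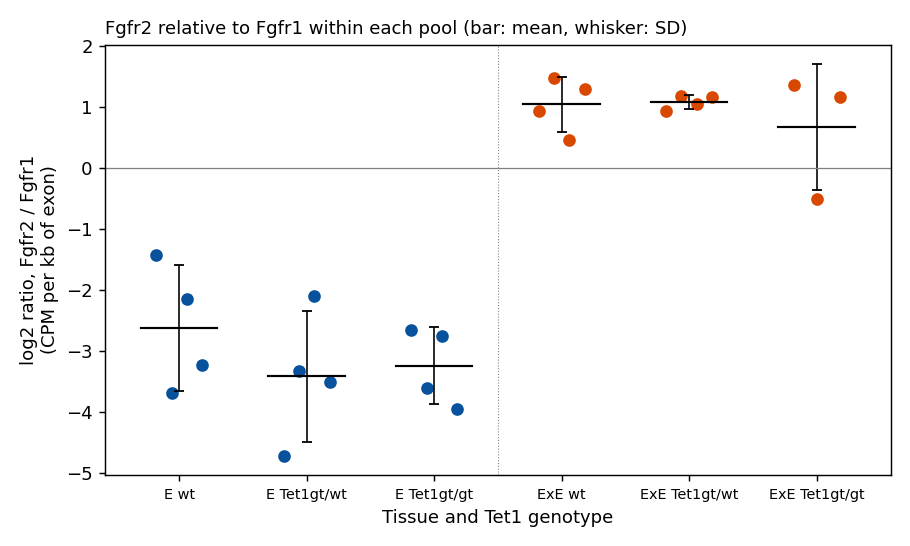
Ratio of Fgfr2 to Fgfr1 per kb of exon in each pool, on a log2 y axis where 0 is an equal level, by tissue and genotype, with the mean as a bar and the SD as a whisker. The 12 E pools lie below 0, and the ExE pools lie above 0 except homozygous pool 3, whose ratio is 0.703.

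Fgfr4 (chromosome 13, 55152818 to 55168759), a receptor best known for binding FGF19 and mouse FGF15, was at 12.9, 0, 4.88 and 0.148 CPM in the E wt pools and 26.0, 25.9, 25.3 and 34.6 CPM in the ExE wt pools. Heterozygous pools had 0, 1.04, 3.70 and 1.58 CPM in E and 32.5, 30.3, 9.82 and 21.1 CPM in ExE. Homozygous pools had 7.18, 4.58, 13.1 and 0 CPM in E and 16.5, 21.7 and 21.4 CPM in ExE. In each genotype all ExE pools were above all E pools, as they were for 14.3% (wt), 14.3% (heterozygous) and 11.2% (homozygous) of all genes tested. The threshold was passed only in heterozygous embryos (3.95 ± 1.13, edgeR adjusted p = 0.0114). The log2 fold change was 2.64 ± 1.03 in wt (adjusted p = 0.0815) and 1.67 ± 1.05 in homozygous embryos (adjusted p = 0.294 by edgeR). In wt it passed without E wt pool 1 (4.06 ± 1.18, edgeR adjusted p = 0.0223) and without the 3 libraries of steep length slope (0.0474).

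Fgfr3 was low and scattered. It was at 9.60, 0, 1.36 and 0 CPM in the E wt pools and 2.52, 0.221, 0 and 1.08 CPM in the ExE wt pools. E pools had 0, 0, 2.82 and 0 CPM in heterozygous and 3.48, 0, 6.39 and 0.339 CPM in homozygous embryos. ExE pools had 0, 0.287, 1.90 and 0.107 CPM in heterozygous and 0, 1.60 and 1.64 CPM in homozygous embryos. No tissue difference in Fgfr3 was detectable at this depth (edgeR adjusted p = 0.641, 0.951 and 0.722 in wt, heterozygous and homozygous embryos).

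Fgfbp1, Fgfr2 and Fgfr4 within E moved with trophoblast markers. The 8 trophoblast markers in E summed, in CPM, to 449, 216, 295 and 166 for wt (pools 1, 2, 4 and 5), to 180, 224, 418 and 246 for heterozygous pools 2 to 5 and to 307, 115, 346 and 164 for homozygous pools 1 to 4, against 1282 to 2034 CPM in ExE. In each genotype the E pools with the most of these markers, wt pools 1 and 4, heterozygous pool 4 and homozygous pools 1 and 3, were also those with the most Fgfbp1, Fgfr2 and Fgfr4. Cdx2, a defining gene of trophoblast, stood in those 5 pools at 10.4%, 13.6%, 20.4%, 11.1% and 24.5% of its ExE mean and in the other 7 at 0.236% to 3.66%. Eomes, counted here also as a primitive streak marker, made up 270, 184, 181 and 121 CPM of the wt E sums. Its level in the E pools was 23.8% to 53.0% of its ExE mean, so the sums are not a measure of trophoblast alone. Markers of visceral endoderm, a layer that surrounds the epiblast, summed to 989 CPM in E wt pool 1 and to 16.9 to 500.2 CPM in the other E pools. The part of these markers in the receptor levels of E was not tested.

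In the cascade of wt embryos, Grb2 and Map2k1 rose in ExE, and Mapk3 and Nras fell. Grb2, the adaptor that carries SOS1 to the membrane (chromosome 11, 115644045 to 115708597), was at 78.2, 73.7, 70.2 and 53.7 CPM in the E wt pools and 123, 139, 124 and 152 CPM in the ExE wt pools. The ExE pools were all above the E pools, a rise of 0.96 ± 0.15 (log2, edgeR adjusted p = 0.000182). It also rose in heterozygous (1.07 ± 0.15, edgeR adjusted p = 2.46e-05) and homozygous embryos (0.73 ± 0.16, 0.00383). Map2k1, the gene of the kinase MEK1, was at 202, 220, 202 and 216 CPM in the E wt pools and 281, 370, 291 and 268 CPM in the ExE wt pools, a rise of 0.53 ± 0.18 (edgeR adjusted p = 0.0455). That call was lost in 10 of 15 alternative settings, including median-of-ratios scaling, each E pool and ExE pools 2, 4 and 5 left out (highest adjusted p = 0.171). The homozygous call of Map2k1 was lost in 8 of 13 settings (highest edgeR adjusted p = 0.228), and the heterozygous call was kept in all 14.

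Mapk3, the gene of ERK1 (chromosome 7, 126759626 to 126765816), was at 115, 147, 115 and 109 CPM in the E wt pools and 59.2, 25.1, 66.3 and 24.6 CPM in the ExE wt pools. Heterozygous pools had 119, 103, 138 and 115 CPM in E and 38.0, 20.1, 27.4 and 29.5 CPM in ExE. Homozygous pools had 104, 105, 158 and 80.3 CPM in E and 35.8, 63.8 and 25.4 CPM in ExE. No ExE pool reached an E pool, and among the wt ExE pools 1 and 4 were again the higher ones. Mapk3 fell by 1.47 on the log2 scale in wt (SE 0.32, edgeR adjusted p = 0.00288), by 2.04 in heterozygous (SE 0.32, 7.81e-05) and by 1.43 in homozygous embryos (SE 0.35, 0.00797).

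Nras, a RAS gene, was at 221, 217, 206 and 246 CPM in the E wt pools and 161, 152, 129 and 181 CPM in the ExE wt pools (-0.52 ± 0.17, edgeR adjusted p = 0.036), a call lost in 8 of 15 settings, among them each of E pools 1, 2 and 5 and ExE pools 1, 2 and 4 left out (highest adjusted p = 0.114). Shc2, a SHC-family adaptor, did not pass the threshold in wt (-1.58 ± 0.60, adjusted p = 0.0724 by edgeR), where without ExE wt pool 1 it was at -2.19 ± 0.64 (0.02) and where DESeq2 called it (adjusted p = 0.0312). It fell in heterozygous (-6.47 ± 0.83, edgeR adjusted p = 8.93e-06) and homozygous embryos (-2.41 ± 0.69, 0.0196). The homozygous call of Shc2 was lost in 3 of 13 settings (highest edgeR adjusted p = 0.0961). Frs2, the docking protein of the receptors, was called only in heterozygous embryos (1.08 ± 0.36, edgeR adjusted p = 0.0306). That call was lost in 6 of 14 settings (highest edgeR adjusted p = 0.0752). Blocked by pool number, Frs2 (0.77 ± 0.19, adjusted p = 0.028) and Map2k2, the gene of MEK2 (0.42 ± 0.10, adjusted p = 0.0272), also passed in wt, and Shc1 passed in heterozygous embryos (-0.43 ± 0.14, edgeR adjusted p = 0.0483). Sos1, Ptpn11, Hras and Braf were called in no genotype, with log2 fold changes of 0.58 ± 0.35, 0.18 ± 0.20, 0.32 ± 0.29 and 0.09 ± 0.31 in wt.

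Among the targets, Etv5, an ETS factor of the PEA3 group (chromosome 16, 22381313 to 22439570), was at 372, 487, 404 and 528 CPM in the E wt pools and 232, 125, 203 and 152 CPM in the ExE wt pools. Heterozygous pools had 450.2, 451, 268 and 481 CPM in E and 91.6, 117, 79.9 and 101 CPM in ExE. Homozygous pools had 381, 424, 325 and 462 CPM in E and 102, 98.9 and 167 CPM in ExE. The tissues did not overlap, and Etv5 fell by 1.33 (SE 0.22, edgeR adjusted p = 0.000377) in wt, 2.08 (SE 0.23, 2.22e-06) in heterozygous and 1.70 (SE 0.25, 0.000167) in homozygous embryos on the log2 scale. Etv1, of the same group, was at 29.7, 31.3, 34.9 and 32.1 CPM in the E wt pools and 9.24, 0, 2.73 and 2.30 CPM in the ExE wt pools (-3.16 ± 0.83, edgeR adjusted p = 0.011), and it also fell in the other genotypes (-4.11 ± 0.89 and -3.29 ± 0.95). The homozygous call of Etv1 was lost in 3 of 13 alternative settings (highest edgeR adjusted p = 0.0921). Etv4, the third of the group, was at 33.7, 37.8, 43.7 and 22.9 CPM in the E wt pools and 35.4, 26.8, 39.0 and 34.5 CPM in the ExE wt pools, which overlapped. Its log2 fold change in wt was -0.03 ± 0.31 (edgeR adjusted p = 0.969), with an interval of 1 SE on both sides of 0, and blocked by pool number it passed in homozygous embryos (-0.93 ± 0.24, adjusted p = 0.0219).

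The phosphatases of the DUSP family did not move as one. Dusp4, a nuclear ERK phosphatase (chromosome 8, 34807610 to 34819894), was at 39.0, 64.1, 33.5 and 69.97 CPM in the E wt pools and 29.4, 8.08, 15.6 and 2.84 CPM in the ExE wt pools, with all ExE pools lower (-1.88 ± 0.44, edgeR adjusted p = 0.0051). Blocked by pool number this call was lost (-2.19 ± 0.68, adjusted p = 0.0547), while in homozygous embryos Dusp4 passed with the block (-1.25 ± 0.34, adjusted p = 0.0285 by edgeR) and not without it (0.0531). Dusp5, another nuclear ERK phosphatase (chromosome 19, 53529145 to 53541809), had the opposite direction. It was at 3.55, 5.05, 3.25 and 3.40 CPM in the E wt pools and 8.999, 15.2, 12.9 and 16.8 CPM in the ExE wt pools, a rise of 1.81 ± 0.47 (edgeR adjusted p = 0.0106). Heterozygous pools had 2.23, 2.77, 8.27 and 4.203 CPM in E and 14.6, 13.05, 9.82 and 10.97 CPM in ExE (1.48 ± 0.47, edgeR adjusted p = 0.0217). The heterozygous call of Dusp5 was lost in 4 of 14 settings (highest edgeR adjusted p = 0.0736). In homozygous embryos E pools had 4.598, 4.999, 11.1 and 1.53 CPM and ExE pools 5.13, 6.15 and 7.05 CPM, which overlapped (0.14 ± 0.50, adjusted p = 0.883 by edgeR). Dusp6, a cytoplasmic ERK phosphatase, was the most abundant of them per length, with 71.5 CPM per kb in wt E and 59.2 CPM per kb in wt ExE (-0.27 ± 0.19, edgeR adjusted p = 0.361), and fell only in heterozygous embryos (-0.55 ± 0.19, adjusted p = 0.0357). That call was lost in 7 of 14 settings (highest edgeR adjusted p = 0.169).

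Of the inhibitors at the membrane, Spry2 fell in wt ExE (-1.03 ± 0.34, edgeR adjusted p = 0.042) and heterozygous ExE (-1.34 ± 0.35, 0.00582), and the wt call was lost in 8 of 15 settings, among them E pools 4 and 5 and ExE pools 1, 2 and 5 left out in turn (highest adjusted p = 0.162). Spry4 fell in heterozygous (-0.74 ± 0.28, edgeR adjusted p = 0.049) and homozygous embryos (-1.07 ± 0.31, 0.019). The heterozygous call of Spry4 was lost in 9 of 14 settings, among them each pool left out in turn (highest edgeR adjusted p = 0.139). Its homozygous call was lost in 3 of 13 (highest edgeR adjusted p = 0.116). Il17rd, which encodes the FGF antagonist Sef, fell in heterozygous embryos (-2.26 ± 0.54, edgeR adjusted p = 0.00325), and in homozygous embryos only when blocked by pool number (-1.45 ± 0.34, adjusted p = 0.0146). Spred2 rose in heterozygous embryos (0.73 ± 0.25, edgeR adjusted p = 0.0308). That call was lost in 9 of 14 settings (highest edgeR adjusted p = 0.186). Among them were the block and, left out in turn, each E pool and ExE pools 1, 2 and 3. Spry1 and Spred1 were called in no genotype, at -0.05 ± 0.23 and 0.13 ± 0.46 in wt. Over the 12 feedback genes, 5 were called in wt (1 higher), 9 in heterozygous (2 higher) and 3 in homozygous embryos (0 higher), with medians of -0.39, -0.65 and -0.76. Of all genes 17.3%, 27% and 16.8% were called in either direction, so the count in homozygous embryos was near the share of all genes. A second list of feedback and target genes, counted below, went the other way, with a median above 0 in each genotype.

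Another 67 genes of the pathway, listed by role, were counted beside the 36, and 55 of them passed the filter on low counts. In wt ExE 12 rose and 7 fell, in heterozygous ExE 13 rose and 14 fell, and in homozygous ExE 13 rose and 9 fell. The shares of all genes that rose and fell were 9.28% and 7.98% in wt, 12% and 14.9% in heterozygous and 9.12% and 7.66% in homozygous ExE. The largest rises past the threshold in wt were those of Kl, the gene of the co-receptor Klotho (0.0339 to 2.20 CPM, group means), Fosl1 (0.0678 to 2.61 CPM), Fos (0.800 to 13.7 CPM) and Gab1 (31.4 to 309.6 CPM), with edgeR adjusted p of 0.0323, 0.0104, 0.00636 and 0.000338. Kl and Fosl1 were at or under the level of 3 counts in E. Fos and Fosl1 encode AP-1 factors, and Gab1 a docking protein that binds GRB2, which was also higher in ExE. Gab1 differed by 3.30 ± 0.55 in wt, 4.09 ± 0.57 in heterozygous and 3.53 ± 0.57 in homozygous embryos. The largest falls were those of Hs6st2, which sulfates heparan sulfate (31.9 to 4.99 CPM), the heparan sulfate proteoglycans Sdc2 (48.0 to 8.23 CPM) and Gpc3 (146.5 to 32.7 CPM), and Fgf13, an intracellular FGF homologue (18.1 to 5.13 CPM). Their edgeR adjusted p in wt were 0.0131, 0.0301, 0.0381 and 0.0361. Dusp9 and Sdc4, chosen after their values were seen, rose from 66.7 to 384.5 CPM (adjusted p = 0.00147 by edgeR) and from 28.9 to 164 CPM (7.88e-05). Of the 14 feedback and target genes tested among the 67, 7 rose and 0 fell in wt ExE. In heterozygous ExE 6 of them rose and 2 fell, and in homozygous ExE 8 rose and 0 fell. Their median log2 fold changes were 1.24, 1.35 and 1.15, against -0.39, -0.65 and -0.76 for the 12 feedback members.

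In homozygous against wt E, 0 of the 34 members tested passed the edgeR threshold, where 0.0161% of all genes did, and 3 had an unadjusted p under 0.05, where 4.19% of all genes did. Fgf3 and Fgf10 did not pass the filter on low counts. DESeq2 also called 0 members. The 3 of smallest p were Dusp4 (-0.74 ± 0.28), Il17rd (-0.64 ± 0.27) and Fgfr1 (0.35 ± 0.16), each with an edgeR adjusted p of 0.961. Dusp4 was at 39.0, 64.1, 33.5 and 69.97 CPM in wt and 30.4, 39.4, 31.3 and 21.9 CPM in homozygous E, which overlapped. Il17rd was at 49.96, 68.1, 32.4 and 41.1 CPM in wt and 25.3, 24.7, 26.9 and 45.3 CPM in homozygous E. The homozygous pools were all above the wt pools for 1 member, Fgfr1, where 2.36% of all genes had such groups, and all below for 1, Shc1, where 2.06% did. The log2 fold changes of the main ligands were 0.41 ± 0.31 for Fgf4, 0.23 ± 0.27 for Fgf5, -0.26 ± 0.34 for Fgf8 and 0.03 ± 0.20 for Fgf15. Over the 34 members 17 were higher and 17 lower, with a median of -0.046 beside 0.0078 over all genes.

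In heterozygous against wt E, 0 of 34 passed the threshold (0 of all genes, 0%), 0 by DESeq2, and 0 had an unadjusted p under 0.05, where 2.40% of all genes did. The 3 of smallest p were Map2k2 (0.35 ± 0.21), Map2k1 (-0.27 ± 0.17) and Hras (0.43 ± 0.28), with edgeR adjusted p of 0.982. Heterozygous pool 4, with a steep length slope, was the highest for Map2k2 and Hras, at 270 and 187 CPM against 156 to 192 and 93.0 to 104 CPM in the other heterozygous pools, and the lowest for Map2k1, at 130 CPM against 167 to 205 CPM. The heterozygous pools were all above the wt pools for 1 member, Fgf17, where 1.34% of all genes had such groups, and all below for 0, where 1.54% did.

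In homozygous against wt ExE, again 0 of 34 members passed (0% of all genes; 0 members by DESeq2), and 4 had an unadjusted p under 0.05, where 7.57% of all genes did. The smallest p belonged to Dusp5 (-1.15 ± 0.35, edgeR adjusted p = 0.513), whose homozygous pools, at 5.13, 6.15 and 7.05 CPM, were all below the wt pools at 8.999, 15.2, 12.9 and 16.8 CPM. Shc1 was at 81.3, 103 and 98.2 CPM in homozygous and 137, 139, 157 and 113 CPM in wt ExE, again without overlap (-0.55 ± 0.18, edgeR adjusted p = 0.513). Fgfbp1 was at 163, 85.0 and 27.7 CPM in homozygous pools, on both sides of the wt pools at 35.1 to 51.7 CPM (1.12 ± 0.45, edgeR adjusted p = 0.577). Of the 34 members 27 were lower, with a median of -0.36, beside 6457 of 12355 genes and a median of -0.023. The feedback group had 11 of 12 lower. The homozygous pools were all below the wt pools for 4 members (Fgfr4, Grb2, Shc1 and Dusp5), where 2.81% of all genes had such groups, and all above for 0, where 3.07% did. Without both wt pools numbered 1 the median was -0.21, and it was -0.21 without homozygous pool 1 and -0.52 without homozygous pool 4. Decidua markers summed to 258 CPM in homozygous pool 3 and to 3.32 to 36.4 CPM in the other ExE pools, and 8 of 9 visceral endoderm markers were lower in homozygous ExE (median -1.80), as were 4 of 7 epiblast markers (median -0.084). Visceral endoderm markers summed to 394 CPM in ExE wt pool 1 and to 19.4 to 91.8 CPM in all other ExE pools, so 1 wt pool stood apart. The part of these markers was not tested.

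In heterozygous against wt ExE, 0 of 34 passed the threshold (0% of all genes), and 4 had an unadjusted p under 0.05, where 4.13% of all genes did. The smallest p was that of Shc2 (-4.93 ± 1.04, edgeR adjusted p = 0.891). In wt its pools had 15.7, 1.22, 9.03 and 4.87 CPM, and its heterozygous pools 0.548, 0.287, 0 and 0.107 CPM, which held 5, 2, 0 and 1 counts of it and lay below every wt pool. DESeq2 called Shc2 (-5.03, adjusted p = 0.00154), as did edgeR with all 23 libraries in 1 fit (-4.95, adjusted p = 0.0199), while the other edgeR settings gave adjusted p from 0.24 upwards. Shc2 had the order of Pou5f1 in the wt ExE pools and not in the heterozygous ones. There it had the order of another epiblast marker, Tdgf1, at 11.5%, 8.50%, 2.70% and 6.59% of its E mean in pools 1, 2, 3 and 5. In the wt pools it stood at 68.2%, 5.29%, 39.2% and 21.1% of its E mean, above Pou5f1 in each pool, and in the heterozygous pools at 2.48%, 1.30%, 0% and 0.482%, below Pou5f1 in each pool. The part of the epiblast markers in the Shc2 difference was not tested.

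Etv5 was at 232, 125, 203 and 152 CPM in wt and 91.6, 117, 79.9 and 101 CPM in heterozygous ExE, with no overlap (-0.85 ± 0.24, edgeR adjusted p = 0.923). Fgf15 was at 30.8, 1.66, 17.5 and 8.38 CPM in wt and 2.41, 0.143, 0 and 2.45 CPM in heterozygous ExE, where wt pool 2 overlapped the heterozygous pools (-3.48 ± 1.07, edgeR adjusted p = 0.955). Over the 34 members 29 were lower, with a median of -0.24, beside 6024 of 12355 genes and a median of 0.0093, and all 12 feedback genes were lower (median -0.31). In the same comparison 7 of 7 epiblast markers were lower (median -1.17) and 8 of 9 visceral endoderm markers (median -2.24), and their part in the members' values was not tested. The visceral endoderm sum was 394 CPM in wt pool 1 and 19.4 to 43.9 CPM in the other wt ExE pools. In the heterozygous ExE pools it was 30.0 to 47.7 CPM. Pools did not overlap for 2 members that were lower (Shc2 and Etv5), where 2.07% of all genes had such groups, and for 0 that were higher, where 1.77% did. In the fit with pool numbers the median of the members was -0.099. The homozygous and heterozygous comparisons share the wt pools, so their directions are not independent of each other. Without both wt pools numbered 1, the median was -0.21.

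**Figure D5:**
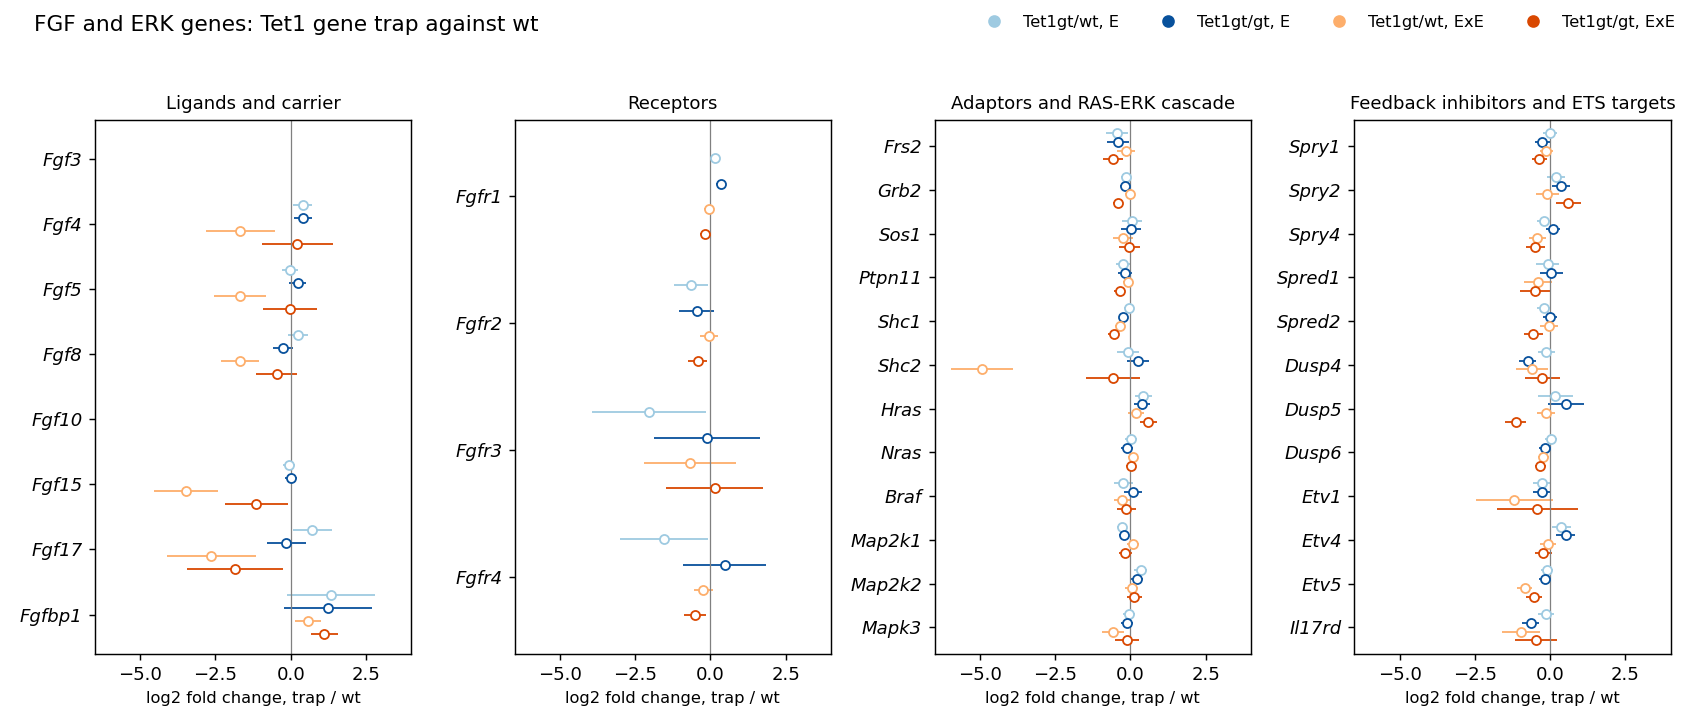
Log2 fold change of each member between a gene-trap genotype and wt in E and in ExE (x axis, below 0 is lower than wt), with whiskers for 1 SE and open points throughout because no member passed the edgeR threshold. Most ExE points lie below 0, and Shc2 in heterozygous ExE lies furthest out at -4.93. Fgf3 and Fgf10 have no points because they did not pass the filter on low counts.

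The difference of the genotype effect between ExE and E was tested directly. For homozygous embryos 0 of 36 members passed (0% of all genes) and 3 had an unadjusted p under 0.05, where 3.06% of all genes did. Those 3 were Fgf3, with all homozygous ExE pools at 0, Dusp5 (-1.67 ± 0.69) and Fgfr1 (-0.50 ± 0.24), and edgeR gave all of them an adjusted p of 0.9999. Dusp5 passed the tissue test in wt and not in homozygous embryos, and this test of the difference itself did not pass. For heterozygous embryos 0 of 36 passed (0% of all genes) and 7 had an unadjusted p under 0.05, where 5.27% of all genes did. Smallest were Shc2 (-4.89 ± 1.01, edgeR adjusted p = 0.238), Fgf15 (-3.42 ± 1.00, 0.601) and Fgf3, with all heterozygous ExE pools at 0 (0.698). Shc2 passed by DESeq2 (-4.97, adjusted p = 0.00151) and by edgeR without ExE wt pool 2 (-5.25, adjusted p = 0.0251). Of the ligands 5 of 8 were among the 7, and all of these comparisons use the wt ExE pools whose epiblast marker levels are given above.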

How the data were processed

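RNA was sequenced from 23 pools of embryo lysate in 6 groups, set by tissue and Tet1 genotype as the labels give them. Per the labels' protocols, the RNA was reverse transcribed and amplified with a SMARTer low-input kit before library preparation and single-end sequencing. Per the submitters' processing notes, the tools were cutadapt 1.7.1 and TopHat2 2.0.12, and the genome build was mm10 (GRCm38). No source used here names the counting program, its annotation or its use of strand, so reads of overlapping genes on either strand cannot be told apart. The authors deposited raw counts per gene, not normalised, in a table of 23725 lines. All 23 columns were matched to samples by title.

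Low genes were removed by edgeR's filterByExpr (min.count 10, min.total.count 15). After TMM scaling, counts were tested two-sided with edgeR 4.0.16 (R 4.3.3) by its quasi-likelihood test with Benjamini-Hochberg adjustment over all genes tested, at a threshold of 0.05. Tissue comparisons, and the test of whether a genotype effect differed between tissues, came from 1 fit of all 23 libraries with 6 groups (13595 genes). Genotype comparisons came from a fit of the 3 genotypes of a tissue (12405 genes in E and 12355 in ExE). Log2 fold changes use a prior count of 0.125 and are given with their SE. Levels are CPM, computed from the deposited counts after TMM scaling. Levels per length are divided by the exon length of the gene in GENCODE M21, and positions and promoters are from RefSeq on GRCm38.p6. The scripts were tested on simulated data.

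The members and the other gene lists were chosen with earlier results of these data known. Values are given in every pool for each ligand and receptor, and for up to 4 called genes of largest fold change in the other roles of the wt tissue comparison. In genotype comparisons without a called member, the 3 of smallest p are named. Of the other pathway genes, up to 4 per direction are named.

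Pools with the same number in E and ExE came from the same litters in 3 of 4 cases, per the labels' protocols. The deviations of such pools from their group means correlated with r of -0.062 to 0.591 (median 0.107, n = 10 pairs), against a median of -0.020 for pools of different number. Homozygous pairs had 0.227, 0.591 and 0.343, and wt and heterozygous pairs had -0.062 to 0.123. The pair at 0.591, homozygous pool 3, joins 2 libraries with steep length slopes. Because of the shared litters the numbers were treated as pairing the tissues, and a fit with the pool number as a block was run beside the one reported. Alternatives were median-of-ratios scaling, DESeq2 1.42.0, no filter on low counts, each pool left out, 3 libraries left out together, other sets of libraries in the fit and, chosen after seeing the data, both wt pools numbered 1 left out. Nothing says more of how pools differ than that each holds at least 6 embryos from 2 to 3 litters, so p-values measure the spread between pools.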

Additional observations from a re-analysis of the deposited data

Results flagged for a closer look

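Dixon's criterion, which assumes normally distributed values, was applied to groups of 4 pools. Where 3 pools were at 0, any count in the remaining pool met it, so the number flagged cannot be set against chance. Only the ligands, the receptors, Mapk3, Grb2, Map2k1, Nras, Etv1, Dusp4, Dusp5 and Etv5 were examined, and the other members were not. Of 98 groups of these genes, 14 had 1 pool far from the other 3 by this criterion. E heterozygous pool 4 was that pool for 5 genes: Fgf10 at 0.176 CPM (1 count, the others at 0), Fgf17 at 12.3 CPM (others 9.77 to 9.98), Fgfbp1 at 13.7 CPM (others 0.106 to 1.18), Fgfr3 at 2.82 CPM (others at 0) and Etv5, which was the lowest, at 268 CPM (others 450.2 to 481). It is 1 of the 3 libraries with steep length slopes, and it held 418 CPM of trophoblast markers against 180 to 246 CPM in the other heterozygous E pools; the part of either was not tested. E wt pool 1 was apart for Fgf10 at 4.996 CPM (others 0 to 0.330) and Fgfr3 at 9.60 CPM (others 0 to 1.36), beside its 989 CPM of visceral endoderm markers. E wt pool 2 was apart for Mapk3 at 147 CPM (others 109 to 115) and Dusp5 at 5.05 CPM (others 3.25 to 3.55).

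The other flagged pools were E heterozygous pool 2 for Fgf4 at 81.6 CPM (others 41.5 to 46.4), E homozygous pool 1 for Fgf10 at 4.15 CPM (others 0 to 0.625), ExE heterozygous pool 3 for Fgf10 at 1.79 CPM (16 counts, others at 0) and Fgfr3 at 1.90 CPM (others 0 to 0.287), and ExE wt pool 5 for Fgfr4 at 34.6 CPM (others 25.3 to 26.0). E homozygous pool 1 held 372 CPM of visceral endoderm markers, against 39.4 to 500.2 CPM in the other homozygous E pools.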

How the results depend on the processing

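Between tissues 15 members were called in wt embryos, 24 in heterozygous embryos and 14 in homozygous ones. The last count fell to 8 in homozygous embryos when only libraries of that genotype were fitted, where the share of all genes called fell to 8.19%. Leaving out 1 pool in turn gave 9 to 15 in wt (9 without ExE wt pool 2), 17 to 22 in heterozygous and 6 to 14 in homozygous embryos (6 without ExE homozygous pool 1). With the pool number as a block, which pairs the tissues by litter, the counts were 16, 23 and 16, where 23.4%, 32.9% and 22.5% of all genes were called, against 17.3%, 27% and 16.8% without it. The genotype comparisons had 0 called members under the replicate block too (0). Between genotypes the number is only a name, as same-numbered pools correlated with a median r of -0.026 (n = 16 pairs). The other settings also gave 0, except for Shc2 in heterozygous ExE, which made the count 1 by DESeq2 and 1 in the fit of all 23 libraries, and in the heterozygous difference between tissues, 1 by DESeq2. Leaving out 1 pool gave 0 to 1 called there (1 without ExE wt pool 2) and 0 to 0 in the other genotype comparisons.

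Fgfr3, not called, turned from -1.51 to 1.06 in the wt tissue comparison without E wt pool 1 (edgeR adjusted p = 0.795), and leaving out 1 pool in turn gave -2.63 to 1.06. Over the genes named in the tissue comparisons (21 in wt, 24 in heterozygous and 14 in homozygous embryos), 41 of 307, 44 of 333 and 31 of 178 values across the settings lost the threshold with their direction kept, and the cause was not tested. In wt all 41 belonged to the 15 called genes, with 15 settings each, as the other named genes had no call to lose. Median-of-ratios scaling moved the median of all genes by under 0.1. Depth limited Fgf3, Fgf10 and Fgfr3 most, with many pools at 0.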

Other observations

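Some members stood apart in 3 libraries. Per kb of exon, Map2k1 relative to Map2k2 was 0.802, 1.001 and 0.820 where length slopes were steep (pool 4 of heterozygous E, then pool 3 of homozygous E and of homozygous ExE), against 1.54 to 3.23 in the other 20 libraries. Hras was at 187, 188 and 276 CPM in those 3 and at 77.9 to 147 CPM elsewhere, and Spred1 at 32.2, 28.8 and 10.9 CPM against 42.3 to 107 CPM elsewhere. Etv5 relative to Etv4, per kb of exon, was 7.001 to 17.4 in the wt E pools and 3.34 to 4.96 in the wt ExE pools, without overlap, as Etv5 fell and Etv4 was not called.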
